A study of Mus musculus with 2 samples.

Results

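The cytochrome P450 family was described in the intestine of 2 newborn mice of the B6NCrl strain (age 0 days), littermates that carried no stated allele or treatment. Members were the protein-coding genes whose symbol is Cyp followed by a digit, found by Ensembl identifier in both gene tables. The rule gave 97 of 43346 Ensembl genes, and 3 further genes of this symbol pattern are not analysed here. Each library was made from 10 ng of RNA longer than 200 nt from 1 pup, and the 2 libraries, pup 1 and pup 2, form 1 group. Sex was not collected, and which segments were dissected is not stated in the labels. No p-value is given: with 2 libraries, the smallest that an exact sign-flip test allows is 0.5.

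P450 enzymes bind heme and insert 1 atom of oxygen into their substrates. Members of the Cyp1, Cyp2 and Cyp3 families mostly clear drugs and food toxins, although several Cyp2c and Cyp2j enzymes oxidise arachidonic acid. The Cyp4 family hydroxylates fatty acids and leukotrienes, and the remaining families make or break down steroids, bile acids, vitamin D and retinoic acid. In the adult small intestine enterocytes of the villus are a main site of drug oxidation outside the liver.

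All 5 epithelial markers reached 1 TPM in each pup (TPM is the deposited length-normalised abundance), with Vil1 at 174 and 195 TPM in pups 1 and 2 and Cdx2 at 28.1 and 31.3 TPM. The libraries held 44568095 and 34797451 expected counts over genes, so a count of 0 can hide up to 3 counts, or 0.0673 and 0.0862 CPM (counts scaled to library depth). Counting intervals and floors cover counting error only. The pups differed in 2 lists of regional markers, those of stomach and hindgut. The 4 stomach genes summed to 60.4 TPM in pup 1 and 296 TPM in pup 2. All 4 were over 2-fold higher in pup 2, where 0.43% of all genes with enough counts were. The 13 hindgut HOX genes summed to 14.5 TPM in pup 1 and 2.41 TPM in pup 2, and none reached 1 TPM in both pups. Of the 9 with enough counts 6 were over 2-fold higher in pup 1, where 0.367% of all genes were. Hoxa10 alone stood at 6.23 and 0.14 TPM, and Hoxc9 went the other way at 0.34 and 0.46 TPM. Hoxa13 had 1 and 2 counts, Hoxd13 had 1 and 0, and Hoxb13 had no read in either pup. Liver markers were uneven, and 4 of the 8 reached 1 TPM in both pups. Ttr stood at 335 and 310 TPM and Fga at 14.62 and 18.23 TPM. Serpina1c stood at 7.99 and 6.31 TPM and Fgb at 6.01 and 7 TPM. The others were lower, with Alb at 0.79 and 0.86 TPM and Apoh at 0.61 and 0.74 TPM. Hpx stood at 0.81 and 0.55 TPM and Ahsg at 1.23 and 0.45 TPM. In bulk tissue, fewer cells of a type and less RNA per cell cannot be told apart.

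The family was present as a few abundant genes among many near-silent ones. At 1 TPM or more in both pups, 29 of 97 members were detected (29.9%), against 59.1% of all 21474 protein-coding genes. Pup 1 alone had 29 members at that level and pup 2 had 31. Of the others, 18 averaged 0.1 to 1 TPM, among them Cyp2j13 (0.29 and 0.13 TPM), Cyp4f39 (0.09 and 0.27 TPM) and Cyp4a12a (0.42 and 0.46 TPM). A further 46 members were under 0.1 TPM in both pups and 25 had no read in either, for which 3 counts would be 0.0301 to 0.105 TPM depending on length. The median member stood at 0.07 TPM in each pup, against 2.89 and 3.08 TPM for protein-coding genes. Among detected genes the medians were 3.76 and 3.77 TPM for members and 12.3 and 12.8 TPM for protein-coding genes. Summed over the family, the level was 528 TPM in pup 1 and 510.1 TPM in pup 2 (519 ± 12.4, SD, n = 2). The 4 highest genes held 63.5% ± 0.0726 of that sum, and the 10 highest held 86.6% ± 0.725.

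**Figure D1:**
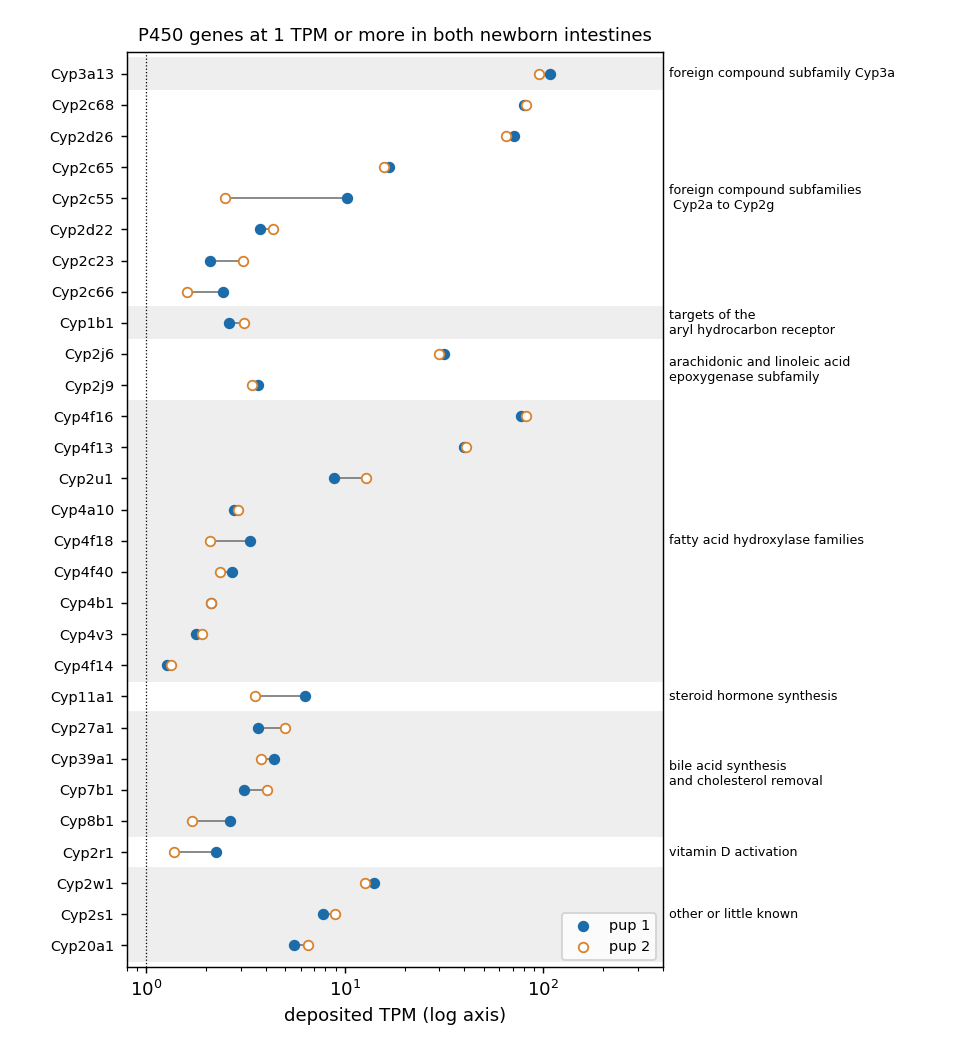
Deposited TPM (log axis) of the 29 P450 genes detected in both pups, grouped by role. Filled points are pup 1, open points pup 2 and the grey line joins them, and the dotted line marks 1 TPM. Cyp3a13, Cyp2c68, Cyp4f16 and Cyp2d26 lie above 60 TPM in both pups, and the Cyp2c55 points are the farthest apart.

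By subfamily, Cyp4f led with 124.7 and 129.8 TPM in pups 1 and 2 (24.5% of the family), followed by Cyp2c with 113 and 107 TPM (21.3%). Cyp3a summed to 109 and 96.6 TPM (19.8%), Cyp2d to 75.2 and 69.3 TPM (13.9%) and Cyp2j to 35.6 and 33.6 TPM (6.67%). The order of these 5 was the same in both pups, and the ranges of Cyp2c and Cyp3a over the pups overlapped. Of 37 subfamilies, 19 had a detected member. Those without one included Cyp2b (5 genes, 0.11 and 0.25 TPM in all) and Cyp2a (4 genes, 0.02 and 0.16 TPM in all).

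**Figure D2:**
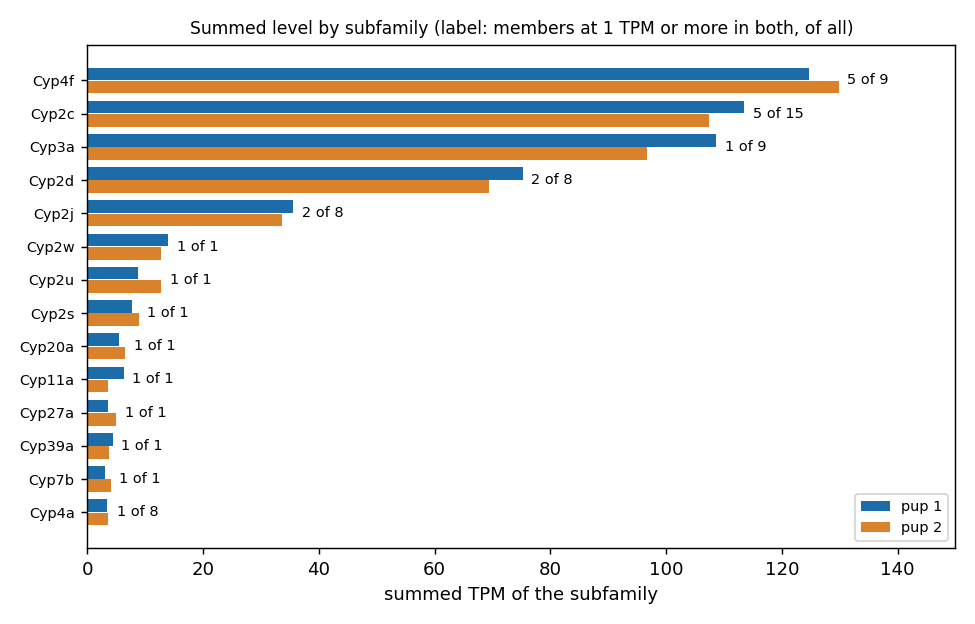
Summed TPM of the 14 subfamilies with the highest sums, pup 1 above pup 2 in each pair of bars, with the number of members detected, of all members, beside them. Cyp4f, Cyp2c, Cyp3a, Cyp2d and Cyp2j lead in both pups, and Cyp3a rests on 1 of its 9 genes.

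The highest member was Cyp3a13 (ENSMUSG00000029727.7, chromosome 5, 137892932 to 137921619, minus strand, GRCm38), a drug-oxidising enzyme of the Cyp3a subfamily. It stood at 108 and 95.4 TPM (102 ± 8.65, SD, n = 2), ranked 1259 among 21461 nuclear protein-coding genes and held 19.5% ± 1.2 of the family's summed TPM. Its relatives were low. Cyp3a11, the main inducible Cyp3a enzyme of adult liver and gut, stood at 0.21 and 0.23 TPM from 17 and 14 counts. Cyp3a13 exceeded it by a log2 ratio of 8.31 ± 0.19 on the TPM + 0.1 scale, or per length by 511-fold (exact 95% interval 319 to 878) in pup 1 and 421-fold (251 to 771) in pup 2. Cyp3a25 was just under the detection level at 0.78 and 0.92 TPM. Cyp3a16, a Cyp3a gene of the perinatal liver, had no read. Cyp3a11 stood 4.11-fold and 3.45-fold above the floor of 3 counts for Cyp3a16 in pups 1 and 2, leaving out the counting error of Cyp3a11. The other 5 of these 9 genes were at 0.05 TPM or less. Cyp3a13 lies 7.45 Mb from the nearest other Cyp3a gene, outside the tandem cluster that holds the remaining 8.

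Cyp2c68 (ENSMUSG00000074882.3, chromosome 19, 39688834 to 39741054) was the highest Cyp2c gene at 79.9 and 81.4 TPM (80.7 ± 1.11). It made up 70.4% and 75.8% of the Cyp2c sum. Its coding sequence is close to those of low neighbours: it is 98.1% identical to that of Cyp2c40, and 45.5% of its 50-base windows occur in a transcript of another gene. The deposited posterior standard deviation of its count, which covers the division of shared reads, was nevertheless 2.16 reads of 4667 in pup 1. The deposited interval of its TPM, of unstated coverage, ran from 76.3 to 80.9 in pup 1 and from 77.1 to 82.4 in pup 2. Cyp2c40 stood at 0.24 and 0.15 TPM, Cyp2c67 at 0.69 and 1.02 TPM and Cyp2c69 at 0.08 and 0 TPM. A stretch of 40 coding bases that sets Cyp2c68 apart from the other 3 genes is shown because the values rest on such differences, with capitals in Cyp2c68 where any of the other 3 differs and in the others where they differ from Cyp2c68. The stretches were read from GENCODE M21 transcripts (GRCm38), 5′ to 3′ on the minus strand, and are coding bases 220 to 259 of Cyp2c68, within 1 exon at chr19:39739448-39739487 (Cyp2c68), chr19:39807587-39807626 (Cyp2c40), chr19:39643664-39643703 (Cyp2c67) and chr19:39881518-39881557 (Cyp2c69).
Cyp2c68: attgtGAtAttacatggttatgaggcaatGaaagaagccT
Cyp2c40: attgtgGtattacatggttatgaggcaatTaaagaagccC
Cyp2c67: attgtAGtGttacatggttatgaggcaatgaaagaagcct
Cyp2c69: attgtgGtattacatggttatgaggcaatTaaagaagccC
Each of the other 3 differs from Cyp2c68 at 3 of these 40 bases, and the Cyp2c40 and Cyp2c69 lines are the same.

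Among the other Cyp2c genes, Cyp2c65 and Cyp2c66 oxidise arachidonic acid in the gut. Cyp2c65 stood at 16.7 and 15.7 TPM (16.2 ± 0.700) and its near copy Cyp2c66 (96.3% coding identity) at 2.45 and 1.60 TPM. As the authors' quantification divided the reads, the leading transcript of Cyp2c66 was one annotated for nonsense-mediated decay, with 77.2% and 73.6% of the gene's TPM in pups 1 and 2. The coding transcript had 22.8% and 26.4%. Cyp2c23, an epoxygenase best known in kidney, stood at 2.10 and 3.06 TPM, and Cyp2c70, a bile acid hydroxylase of mouse liver, at 0.98 and 1.95 TPM, just missing the detection level in pup 1. Cyp2c55, described with the differences between pups, is the remaining detected gene of the subfamily.

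Cyp2d26 (ENSMUSG00000022445.6, chromosome 15, 82790101 to 82794294) stood at 71.1 and 64.8 TPM (67.9 ± 4.48) and made up 94.5% and 93.4% of the Cyp2d sum. Cyp2d22 followed at 3.76 and 4.37 TPM, and the other 6 Cyp2d genes were at 0.16 TPM or less. Both lie at the ends of the Cyp2d cluster, with the 6 low genes between them. Outside these subfamilies, genes of the liver's drug metabolism were near the floor. Cyp2b10, a target of the constitutive androstane receptor Nr1i3, stood at 0.11 and 0.23 TPM. Cyp2e1, which oxidises ethanol, stood at 0.03 and 0.06 TPM, and Cyp1a2, a caffeine-oxidising enzyme of liver, had no read. Cyp2a5, the highest Cyp2a gene by mean TPM, had 0 and 1 count, the latter on a transcript of 442 nt. Cyp2a12 had more counts, 1 and 2. The airway enzyme Cyp2f2 stood at 0.34 and 0.25 TPM, and the nasal enzyme Cyp2g1 had no read.

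Of the 3 Cyp1 genes, which are targets of the aryl hydrocarbon receptor, the sensor of planar aromatic compounds, Cyp1b1 was detected at 2.63 and 3.12 TPM (2.88 ± 0.346). Cyp1a1 had 4 and 5 counts (0.04 and 0.07 TPM). Cyp1a1 stood below Cyp1b1 by a log2 ratio of -4.26 ± 0.030 on the TPM + 0.1 scale, and the per-length ratio of Cyp1a1 to Cyp1b1 was 0.0168 (exact 95% interval 0.00455 to 0.0432) in pup 1 and 0.0230 (0.00744 to 0.0542) in pup 2. The receptor Ahr itself was present at 3.81 and 3.68 TPM, with its partner Arnt at 9.39 and 10.7 TPM and its repressor Ahrr at 0.40 and 0.17 TPM.

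Fatty acid hydroxylases were detected in 9 of 20 genes, against 59.1% of all protein-coding genes, and summed to 141 and 150.2 TPM. Cyp4f16 (ENSMUSG00000048440.11, chromosome 17, 32536558 to 32551798) stood at 76.7 and 82.0 TPM (79.4 ± 3.76). Cyp4f13 stood at 39.98 and 40.7 TPM (40.3 ± 0.502). Members known for inactivating leukotriene B in mice were lower: Cyp4f14 stood at 1.28 and 1.34 TPM and Cyp4f18, known in neutrophils, at 3.33 and 2.10 TPM. Part of Cyp4f18 (181 exon bases) overlaps Zfp961 on the opposite strand, which stood at 15.8 and 16.4 TPM, and no source used here states whether counting used strand. Cyp4f17 stood at 0.59 and 0.96 TPM, and Cyp4f40 at 2.72 and 2.37 TPM.

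Outside the Cyp4f subfamily, Cyp2u1, which hydroxylates arachidonic acid, stood at 8.82 and 12.7 TPM (10.8 ± 2.76). Cyp4a10, a classic target of the fatty acid receptor Ppara, stood at 2.78 and 2.91 TPM (2.85 ± 0.0919), while its relative Cyp4a14 had 3 and 1 counts. The log2 ratio of Cyp4a10 to Cyp4a14 was 4.37 ± 0.40 on the TPM + 0.1 scale, and per length the ratio was 39.99 (exact 95% interval 13.5 to 196) in pup 1 and 192 (34.0 to 7630) in pup 2. The other 6 Cyp4a genes were under 0.5 TPM, and the coding sequence of Cyp4a10 is 97.2% identical to that of Cyp4a32, which had no read. Cyp4b1, known for oxidising foreign compounds in the lung, stood at 2.13 and 2.12 TPM, Cyp4v3, a fatty acid hydroxylase, at 1.78 and 1.92 TPM, and Cyp4x1, known in brain, at 0.17 TPM in both pups. Cyp4f14 stood below Cyp4b1 by a log2 ratio of -0.66 ± 0.048, a difference larger than the spread between pups. The epoxygenase subfamily Cyp2j was led by Cyp2j6 at 31.4 and 29.9 TPM (30.6 ± 1.12), with Cyp2j9 at 3.67 and 3.41 TPM and the other 6 genes under 0.3 TPM.

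Of the 6 genes of steroid hormone synthesis, Cyp11a1 was the one detected. Its mitochondrial enzyme cleaves the side chain of cholesterol, the first step of all steroid hormones. Cyp11a1 (ENSMUSG00000032323.9, chromosome 9, 58006411 to 58027023) stood at 6.29 and 3.55 TPM (4.92 ± 1.94). An adjoining predicted gene, Gm17322, shares 145 exon bases with it and stood at 3.32 and 3.31 TPM. Cyp11b1, the last step of corticosterone synthesis, stood at 0.03 and 0.22 TPM. The log2 ratio of Cyp11a1 to Cyp11b1 on the TPM + 0.1 scale was 5.62 in pup 1 and 3.51 in pup 2 (4.57 ± 1.49). Cyp21a1, which acts between them, had 8 and 11 counts (0.14 and 0.20 TPM). Cyp11b2, which makes aldosterone, had 1.56 and 0 expected counts, the androgen enzyme Cyp17a1 had 0 and 1, and the aromatase Cyp19a1 had no read.

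Of 8 other genes of glucocorticoid synthesis and conversion 5 were detected, a share near the 59.1% of all protein-coding genes. The steroid dehydrogenase Hsd3b3 stood at 41.4 and 39.97 TPM, the cholesterol carrier Star at 2.70 and 3.82 TPM, and the nuclear receptor Nr5a2, known to drive steroid synthesis in the gut, at 3.16 and 3.86 TPM. Hsd11b1, which regenerates corticosterone, stood at 2.58 and 2.16 TPM. Below the detection level were Hsd11b2 in pup 2 (3.27 and 0.89 TPM in pups 1 and 2), Hsd3b1 (0.30 and 0.23 TPM) and Hsd3b6, which had no read. Of the 4 adrenal markers 2 were detected, Akr1b7 at 4.26 and 5.22 TPM and Star, which is also in the list above. The other 2, Nr5a1 and Mc2r, stood at 0.03 and 0.10 TPM and at 0.23 and 0.15 TPM, and the part of adrenal cells in the Cyp11a1 level was not tested.

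Bile acid and oxysterol enzymes were detected in 4 of 6 genes at low levels, 14.3 and 15.2 TPM in sum. That share is near the 59.1% of all protein-coding genes. Cyp27a1, the mitochondrial enzyme that starts the alternative pathway, stood at 3.65 and 5 TPM (4.33 ± 0.955), Cyp39a1, an oxysterol hydroxylase, at 4.40 and 3.77 TPM (4.09 ± 0.445), and Cyp7b1, which follows Cyp27a1, at 3.12 and 4.06 TPM (3.59 ± 0.665). Cyp8b1, which directs synthesis to cholic acid, stood at 2.66 and 1.71 TPM (2.19 ± 0.672). The levels of the first 3 overlapped between pups and could not be ordered. Cyp7a1, the rate-limiting enzyme of the classic pathway in liver, had no read. Cyp27a1 stood 91.9-fold and 96.5-fold above the floor of 3 counts for Cyp7a1 (0.0397 and 0.0518 TPM) in pups 1 and 2. These ratios leave out the counting error of Cyp27a1 and include its retained-intron transcripts. Cyp46a1, which removes cholesterol from neurons, stood at 0.45 and 0.65 TPM. The coding transcript of Cyp27a1 held 66.7% and 49.7% of the gene's TPM (2.43 and 2.49 TPM), with the rest in 2 retained-intron transcripts.

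Vitamin D and retinoic acid enzymes were low. Cyp2r1, which makes the circulating form of vitamin D, stood at 2.24 and 1.38 TPM (1.81 ± 0.608), and Cyp27b1, which makes the hormone in the kidney, had 2 and 1 counts. The longest Cyp2r1 transcript, a coding one, held 47.3% and 88.7% of the gene's TPM (1.06 and 1.22 TPM). The rest in pup 1 was in a transcript annotated for nonsense-mediated decay (0.68 TPM) and a shorter coding one (0.50 TPM). The ratios that follow include all transcripts of the gene. Per length, Cyp2r1 exceeded Cyp27b1 by 92.0-fold (exact 95% interval 24.8 to 771) in pup 1 and 86.8-fold (14.9 to 3489) in pup 2, and the log2 ratio on the TPM + 0.1 scale was 3.95 ± 0.47. The retinoic acid hydroxylases Cyp26a1 and Cyp26c1 had 7 and 2 counts and 2 and 0 counts in pups 1 and 2.

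Among members of other or little-known function, Cyp2w1, known from fetal gut and human colon tumours, stood at 14.01 and 12.7 TPM (13.4 ± 0.933). Cyp2s1, an epithelial P450, stood at 7.80 and 8.89 TPM (8.35 ± 0.771), and Cyp20a1, whose substrate is unknown, at 5.55 and 6.57 TPM (6.06 ± 0.721). In Cyp20a1 a transcript annotated for nonsense-mediated decay held 62.0% of the gene's TPM in pup 1 and 44.0% in pup 2, with the coding transcript at 38.04% and 56.03%. Cyp2t4 and Cyp2ab1 had at most 1 count per pup. Over the 29 detected members, 15 had 1 annotated transcript. In 12 of the remaining 14 the leading transcript was the same in both pups, and in 10 it held over 50% in both.

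The partners that P450 enzymes need were all present. For comparison with the counts below, 59.1% of all protein-coding genes were detected. Microsomal P450s receive electrons from the reductase Por, and mitochondrial ones such as Cyp11a1 and Cyp27a1 from Fdxr through the ferredoxin Fdx1. All 8 redox partners passed 1 TPM in both pups, led by Cyb5a (316 and 311 TPM), Pgrmc1 (184 and 187 TPM), Fdx1 (102 and 104 TPM) and Cyb5r3 (87.5 and 94.7 TPM). Por stood at 73.6 and 66.1 TPM and Fdxr at 6.41 and 6.58 TPM, the reductase thus lower than the leading member Cyp3a13 in TPM in both pups. The 7 genes of heme synthesis examined were detected, led by Alad (126 and 135 TPM), Urod (42.4 and 46.7 TPM), the first enzyme Alas1 (43.3 and 43.2 TPM) and Cpox (37.8 and 41.2 TPM). Of 13 regulators, 12 passed 1 TPM, the exception being Ahrr. The bile acid receptor Nr1h4 stood at 94.3 and 111 TPM, Hnf4a at 40.7 and 42.4 TPM, Nr1i3 at 24.8 and 31.2 TPM and Nr0b2 at 28.0 and 20.5 TPM. The receptors for foreign compounds Nr1i2 (18.6 and 20.9 TPM) and Nr1i3 were thus present. Cyp3a11 and Cyp2b10, which are among their known targets in adult liver, stayed under 0.3 TPM. Targets of these receptors were not examined as a set.

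Most members lie in clusters with other members, and within a cluster the level was uneven. Chains of 3 or more members with neighbouring starts under 1 Mb apart formed 8 clusters with 72 genes. Of these 16 were detected (22.2%), against 13 of the 25 members elsewhere (52%) and 59.1% of all protein-coding genes. The share elsewhere is thus near that of all protein-coding genes. On chromosome 19 (39007019 to 40187333) 4 of 14 Cyp2c genes were detected, and on chromosome 17 (32452723 to 32947402) 4 of 8 Cyp4f genes. The chromosome 15 (82370527 to 82794294) and chromosome 4 (96027534 to 96664154) clusters of Cyp2d and Cyp2j had 2 of 8 genes each. In the Cyp2j cluster Cyp2j6 held 88.3% and 88.8% of the sum. On chromosome 7 (25802475 to 27158668) Cyp2s1 was the detected gene among 13, and the other 12 belong to the Cyp2a, Cyp2b, Cyp2f, Cyp2g and Cyp2t subfamilies. The chromosome 5 cluster (145345279 to 146113287) of 8 Cyp3a genes had none detected and summed to 0.99 and 1.24 TPM. The chromosome 9 cluster (57676937 to 58027023) holds Cyp1a2, Cyp1a1 and Cyp11a1, which are not of 1 family, and Cyp11a1 was its detected gene.

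**Figure D3:**
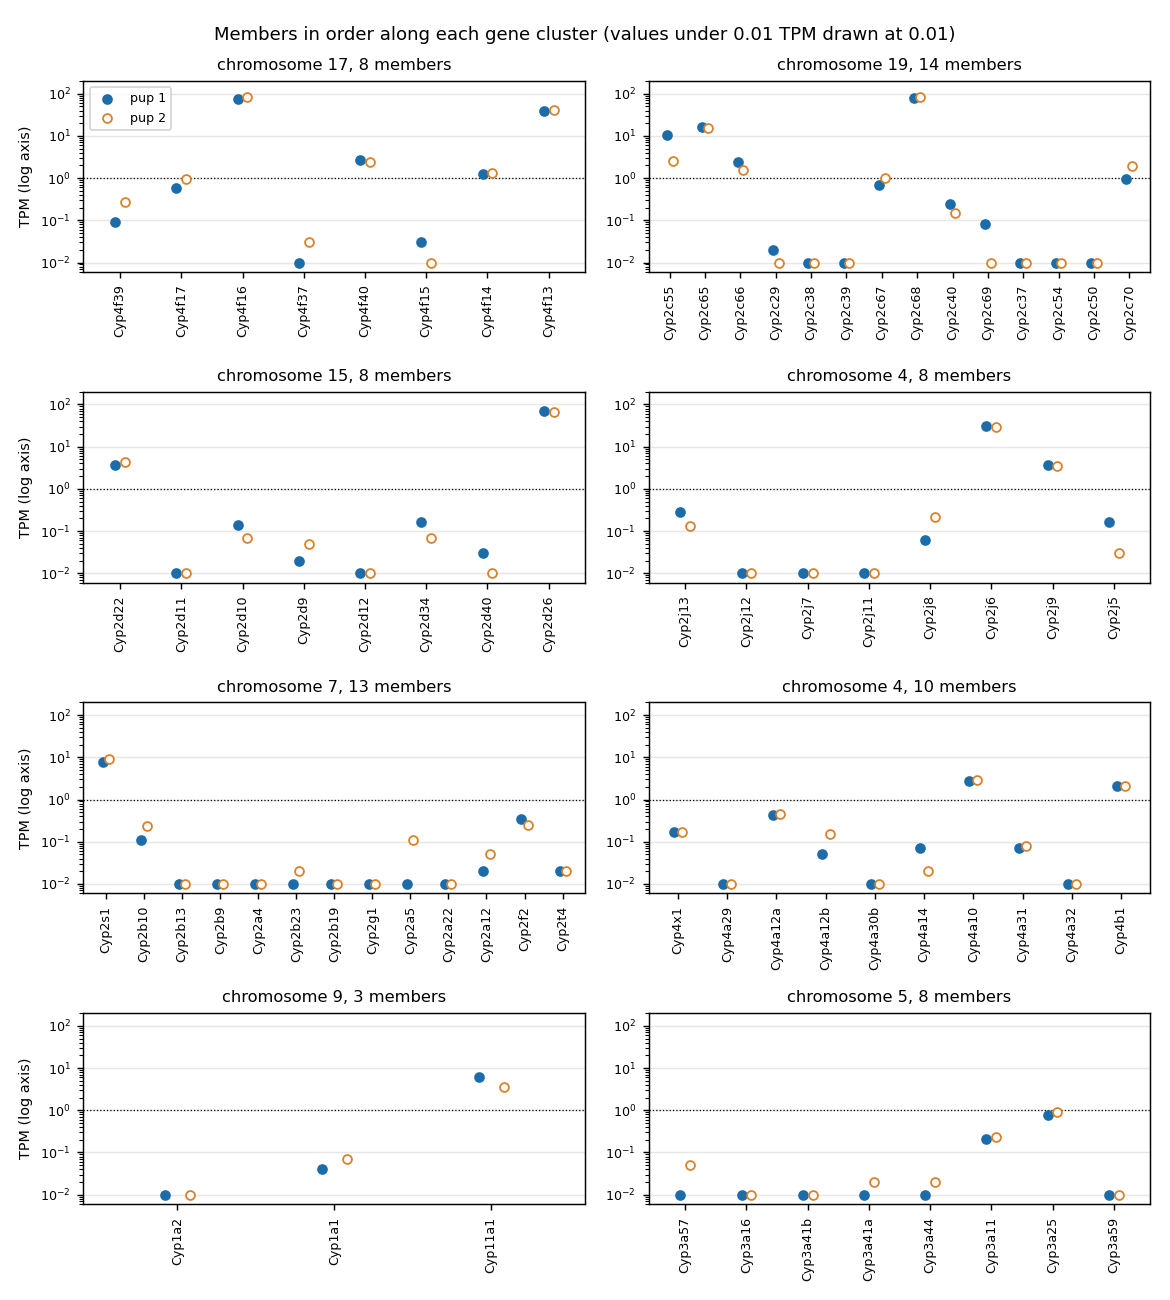
TPM (log axis) of the members in each of the 8 gene clusters, in order along the chromosome, with filled points for pup 1 and open points for pup 2. Values under 0.01 TPM are drawn at 0.01, and the dotted line marks 1 TPM. Cyp2c68, Cyp4f16, Cyp2d26 and Cyp2j6 stand above their direct neighbours, and no gene of the chromosome 5 cluster reaches 1 TPM in both pups.

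High and low members of a subfamily could share the same heme-binding loop. In a P450 the cysteine of the pattern Phe-x-x-Gly-x-Arg-x-Cys-x-Gly holds the heme iron, and 89 of 97 members had this pattern in their coding sequence, among them 24 of the 29 detected. The match had to be exact and was sought in the longest quantified coding sequence of each gene. A miss thus does not show that the cysteine is absent. The 30 coding bases of the loop are shown for high and low members of the same subfamilies, 5′ to 3′ in the coding direction, with the cysteine codon in capitals (GENCODE M21, GRCm38). Cyp3a13 lies at chr5:137895267-137895296 and Cyp3a11 at chr5:145858805-145858834, both on the minus strand. Cyp11a1 lies at chr9:58026211-58026240 on the plus strand. The loop of the others spans an exon junction.
Cyp3a13: tttgggagtggaccaaggaacTGCattggc
Cyp3a11: tttgggaatggacccaggaacTGCcttggc
Cyp2c68: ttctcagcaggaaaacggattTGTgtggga
Cyp2c40: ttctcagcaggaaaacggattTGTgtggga
Cyp2c55: ttctcaataggaaagcgaatgTGCgtggga
Cyp4f16: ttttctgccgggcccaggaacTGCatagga
Cyp4f37: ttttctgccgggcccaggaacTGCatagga
Cyp11a1: tttggctggggtgttcggcagTGTctgggc
The loop of Cyp2c40 differed from that of Cyp2c68 at 0 bases, that of Cyp4f37 (0 and 0.03 TPM) from that of Cyp4f16 at 0 bases, that of Cyp3a11 from that of Cyp3a13 at 3 bases and that of Cyp2c55 from that of Cyp2c68 at 6 bases. Over whole coding sequences, 9 of 29 detected and 38 of 68 other members had more than 10% of their 50-base windows in common with a transcript of another gene. For detected members the posterior standard deviation was at most 2.89% of the count (Cyp2c66 in pup 2). Values of low members with near-identical copies, such as Cyp2c40, Cyp4a12a and Cyp4a12b, are uncertain.

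Between the pups, 27 of the 49 members with enough counts had a ratio whose whole interval lay within 2-fold. Ratios are pup 1 over pup 2 of expected counts scaled to effective library size, and a gene was called over 2-fold apart when the pups together had at least 10 counts and the whole exact 95% interval was above 2 or under 0.5. Of 49 members with that count, 1 was called higher in pup 1, where 0.367% of all 19088 genes were, and 1 higher in pup 2, where 0.43% were. Together that is 2 of 49 members (4.08%), against 0.796% of all genes, a share that rests on 2 genes. The median absolute log2 ratio was 0.25 over these members and 0.13 over all genes tested, not matched for count. Of the 29 detected members, 25 had an interval wholly between 0.5 and 2, and their ratios ran from 0.72 to 4.31.

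**Figure D4:**
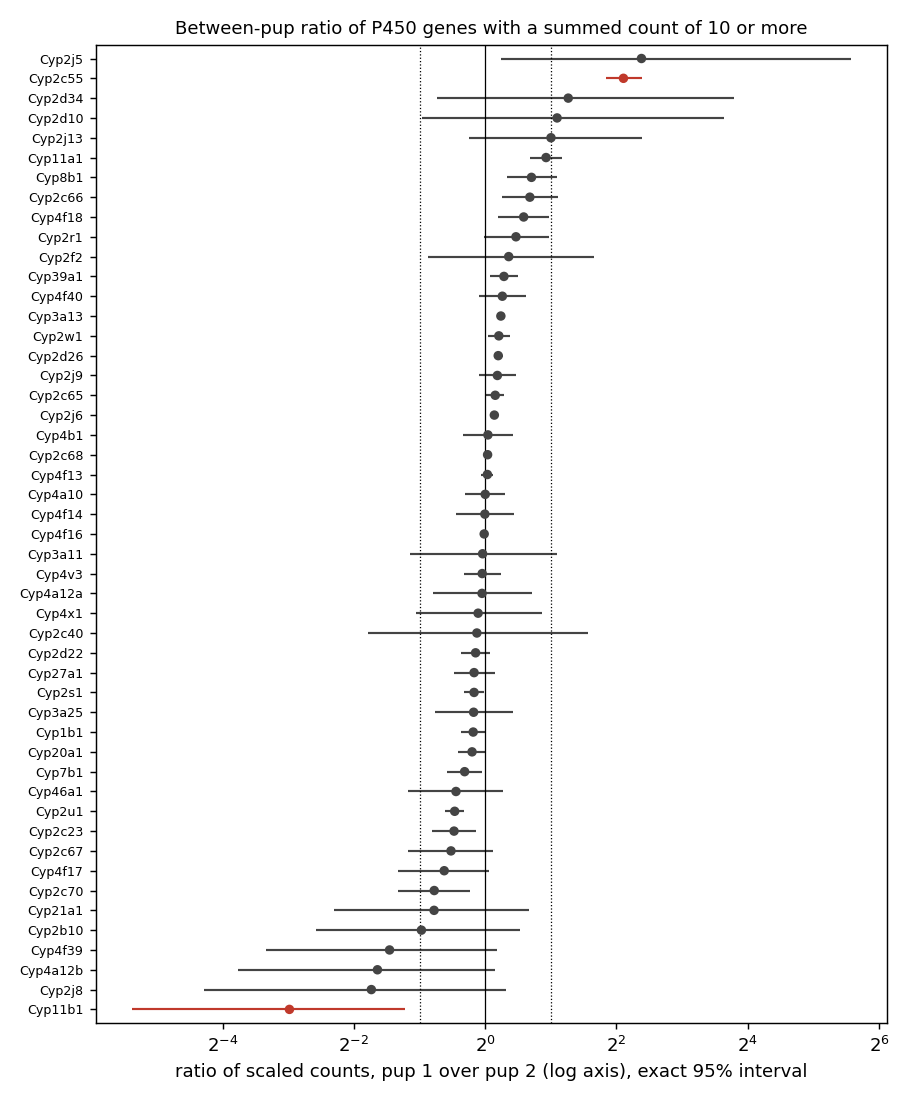
Ratio of scaled counts, pup 1 over pup 2 (log axis), with exact 95% counting intervals, for the 49 P450 genes with a summed count of 10 or more. Solid and dotted lines mark 1 and the 2-fold limits, and red marks the genes called over 2-fold apart. Cyp2c55 lies wholly above 2 and Cyp11b1 wholly below 0.5.

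Cyp2c55 (ENSMUSG00000025002.5, chromosome 19, 39007019 to 39042693), which oxidises arachidonic acid and is known in mouse colon, had 704 counts in pup 1 and 131 in pup 2 (10.3 and 2.51 TPM). It was 4.31-fold higher in pup 1 (exact 95% interval 3.57 to 5.23). None of its 50-base coding windows occurs in another gene's transcript, and its nearest relative, Cyp2c29, is 77.7% identical. Its neighbour Cyp2c65 differed by less, with a ratio of 1.11 (1.01 to 1.22), so that the log2 ratio of Cyp2c65 to Cyp2c55 was 0.69 in pup 1 and 2.60 in pup 2 (1.64 ± 1.35). The hindgut HOX sum was 14.5 TPM in pup 1 and 2.41 TPM in pup 2, with none of these genes at 1 TPM in both pups. The part of the HOX difference in the Cyp2c55 result was not tested.

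Cyp11b1 had 3.44 expected counts in pup 1 and 19 in pup 2, a ratio of 0.127 (0.0240 to 0.430), or 7.90-fold higher in pup 2. The call rests on few reads, and 20.7% of its 50-base coding windows occur in another gene's transcript. Its nearest relative is Cyp11b2, which had 1.56 and 0 expected counts in pups 1 and 2. Whether the call would hold for the pair summed was not tested. The posterior standard deviation of its count was 14.2% of the count in pup 1 and 2.89% in pup 2. The 4 adrenal markers summed to 7.22 TPM in pup 1 and 9.29 TPM in pup 2, the stomach markers to 60.4 and 296 TPM and the exocrine pancreas markers to 105 and 170 TPM, and their part in the result was not tested.

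Among members with a summed count of 50 or more, the next highest ratios were not called. Cyp11a1 was 1.90-fold higher in pup 1 (1.60 to 2.26) and Cyp8b1 1.63-fold higher in pup 1 (1.25 to 2.13), both with intervals that cross 2. The lowest ratios at that count were those of Cyp2c70 at 0.584 (0.399 to 0.850), Cyp4f17 at 0.649 (0.400 to 1.04) and Cyp2c67 at 0.697 (0.445 to 1.09). The most abundant members were close: Cyp3a13 at 1.18 (1.15 to 1.22), Cyp2d26 at 1.15 (1.09 to 1.21), Cyp2c68 at 1.03 (0.983 to 1.07), Cyp4f13 at 1.02 (0.962 to 1.09) and Cyp4f16 at 0.990 (0.952 to 1.03). With these depths, intervals of members under 50 counts in sum are wide.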

How the data were processed

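RNA of 2 newborn intestines was sequenced, 1 library per pup. The authors deposited 1 gene and 1 transcript table per library with expected counts, that is, estimated counts, often fractional because reads matching several features are divided, and their posterior means. The deposited TPM values equal, as checked on the tables, each count divided by effective length and scaled to a fixed total over all features, spike-ins included. The share of a gene's TPM in each of its transcripts was deposited in percent. The deposited posterior standard deviation of the count and the interval bounds of TPM were handled as a signal. The assembly was mm10 with annotation M4, as a deposited text file states. The aligner, the quantifier and whether strand was used are not given in the sources.

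Gene names, classes and coordinates were taken from GENCODE M21 (GRCm38, identical to mm10), whose identifiers matched 42462 of 43346 Ensembl genes (98.0%). Expected counts were rounded to whole numbers for ratios. Effective library sizes came from TMM in edgeR 4.0.16 (R 4.3.3), with DESeq2 1.42.0 size factors as an alternative, and exact (Clopper-Pearson) 95% intervals from SciPy 1.17.1. Log2 ratios between pups used a prior count of 2, and those between genes a pseudocount of 0.1 TPM. Other steps used pandas 2.3.3, numpy 2.4.6 and Python 3.11.15; matplotlib 3.10.9 drew the plots. The call rule was tested on simulated counts. The depth was 44568095 and 34797451 expected counts.

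Named members were the 20 highest, the highest of each subfamily, those of steroid, bile acid, vitamin D and retinoic acid metabolism, those over 2-fold apart, the 3 highest and 3 lowest ratios at a summed count of 50 or more, the genes of 9 pairs and the 2 nearest 1 TPM on either side. Other members named, the overlapping genes and the printed sequences were chosen after their values were seen. Of the lists of redox partners, heme synthesis, regulators and glucocorticoid synthesis and conversion, the 4 highest genes and those under 1 TPM were named. Further genes of these and the genes named from the marker lists were chosen after their values were seen. Of the list of heme synthesis, 1 gene is not reported here. Members, lists and pairs were chosen with earlier results of these data known.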

Additional observations from a re-analysis of the deposited data

How the results depend on the processing

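Leaving out either pup gave 31 and 29 detected members, a summed level of 510.1 and 528 TPM, 18.7% and 20.4% of it in the highest member and 71.4% and 71.1% in the 5 highest. Detected members numbered 33 at 0.5 TPM, 24 at 2 TPM, 37 at 10 or more expected counts in both pups and 30 with posterior mean TPM. The summed level was 565 TPM with full in place of effective lengths and 662 TPM when rescaled over nuclear protein-coding genes, a shift of all genes by log2 0.35. The 5 highest members held 70.5% with posterior mean TPM (71.3% as deposited).

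With a pseudocount of 1 TPM the log2 ratios were 6.39 for Cyp3a13 over Cyp3a11, -0.29 for Cyp3a16 over Cyp3a11, 2.40 for Cyp27a1 over Cyp7a1, 2.36 for Cyp11a1 over Cyp11b1, -1.87 for Cyp1a1 over Cyp1b1, 1.88 for Cyp4a10 over Cyp4a14, -0.44 for Cyp4f14 over Cyp4b1 and 1.44 for Cyp2r1 over Cyp27b1. With 0.01 TPM they were 8.78 for Cyp3a13, -4.52 for Cyp3a16, 8.74 for Cyp27a1, -5.51 for Cyp1a1, 5.86 for Cyp4a10 and 5.88 for Cyp2r1, over the same genes. With posterior mean TPM they were -1.46 for Cyp3a16, 3.68 for Cyp27a1, -4.15 for Cyp1a1, 3.64 for Cyp4a10, -0.77 for Cyp4f14 and 3.31 for Cyp2r1. No pair changed sign under these settings or without either pup, and a gene at 0 sets such ratios by the pseudocount alone.

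Cyp2c55 and Cyp11b1 stayed the members over 2-fold apart with total counts, median-of-ratios size factors, posterior mean counts or no count filter, and at a summed count of 50 or more the number higher in pup 2 was 0, since Cyp11b1 is then not tested. With posterior mean counts 0.422% of all genes were called. The median absolute log2 ratio over members was 0.24 with total counts, 0.26 with posterior mean counts, 0.47 with no filter and 0.20 at a summed count of 50 or more.

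No paired analysis was possible because both libraries belong to 1 group. That there are 2 libraries limits what spread can be shown, and low members rest on few reads.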
